A study of Rattus norvegicus with 21 samples.

Results

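Compound D was given to rat pancreatic islets at 300 nM together with glucolipotoxic culture (GLT, 27 mM glucose and 300 µM palmitate) for 3 h, and gene expression was set against islets of the same preparations without it. The comparison takes 6 of the 21 RNA-sequencing libraries of the series. The 3 libraries of condition 5 hold compound D in 3 h GLT, and the 3 libraries of condition 2 are the group without it. They were chosen by their column names and matched by islet preparation, 1 library of each group in each of preparations 1, 2 and 3. Each preparation was pooled from 8 Sprague Dawley rats and then divided over the culture groups, so a preparation is a replicate and no single animal is resolved.

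The name of condition 2 is disputed in the deposited material. The authors' sample sheet calls its libraries 3 h GLT, which makes compound D the only named difference from condition 5. The sample records call the same libraries 24 h control, in 11 mM glucose without palmitate, in which case condition 5 also differs from them in time, glucose and palmitate. The sheet and the records disagree for 6 of the 21 libraries, those of conditions 2 and 3, whose names they exchange. In the groups whose names agree, the summed endothelial and the summed stellate cell and fibroblast markers separated the 3 h groups from the 24 h groups. The 24 h groups were all in GLT. The summed acinar, ductal, Schwann cell, macrophage and lymphocyte markers overlapped between these times. The summed level of 19 endothelial markers was 339 to 401 CPM (counts per M counts in genes after TMM scaling) in the 3 h groups (conditions 1, 5 and 7) and 68.4 to 232 CPM in the 24 h groups (conditions 4, 6 and 8, the last with compound E), and it was 358 to 423 CPM in condition 2 and 140 to 201 CPM in condition 3. The 18 stellate cell and fibroblast markers summed to 1140 to 1630 CPM in the 3 h groups and 1690 to 3050 CPM in the 24 h groups, with 1380 to 1470 CPM in condition 2 and 2340 to 2930 CPM in condition 3. Hba-a2, an alpha globin gene and a single member of the red cell list, was at 2.71 to 11.2 CPM in the 3 h groups and 0.151 to 0.961 CPM in the 24 h groups. It was at 5.29 to 10.9 CPM in condition 2 and 0.274 to 0.571 CPM in condition 3. The sum of the 10 red cell markers overlapped between the times. In these 3 measures condition 3 lay within the range of the 24 h groups and condition 2 within or above that of the 3 h groups, away from the 24 h groups in each. This is the order of times in the sheet and differs from that in the records. No group of agreed name is a 24 h control, so these ranges do not show where a 24 h control would lie. No library was moved to another group on these values. Every result below is written by condition number, and the record's reading, condition 5 against condition 3, is given in a paragraph of its own. Condition 1 (3 h control, 11 mM glucose), condition 4 (24 h GLT), condition 6 (24 h GLT with compound D) and condition 7 (3 h GLT with compound E, 1 library of preparation 2) carry the same name in both. Compounds D and E are code names, and the sources used here give neither a structure nor a target for them.

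Islets are small endocrine organs in which insulin-producing beta cells are the majority and glucagon-producing alpha cells, somatostatin-producing delta cells and pancreatic polypeptide cells make up most of the rest. In beta cells glucose metabolism closes potassium channels, calcium enters, and calcium and cAMP signals switch on immediate early genes such as Fos, the Nr4a receptors and Klf4, which need no new protein synthesis to be transcribed. Glucose metabolites also act through the transcription factors ChREBP and MondoA, whose best known targets are Txnip, encoding a thioredoxin-binding arrestin that limits glucose uptake, and its relative Arrdc4. High glucose combined with a saturated fatty acid such as palmitate stresses the endoplasmic reticulum of these cells and is used as a culture model of the diabetic environment.

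The 6 libraries held 24.1 to 30.9 M counts in genes (median 27.7 M), and 3 counts, taken as the detection limit, corresponded to 0.0963 to 0.131 CPM. The 2 libraries of preparation 1 differed from each other in composition. Insulin genes took 40.2% of the condition 2 library and 11.5% of the condition 5 library, the ribosomal precursor entry Rn45s took 1.52% and 7.88%, and ambiguous reads made up 0.691% and 2.31%. In preparations 2 and 3 the insulin share was 35.4% and 21.1% in condition 2 and 28.7% and 17.0% in condition 5, lower with compound D in 3 of 3 preparations. The part of these differences in the results was not tested beyond the alternatives that carry the ambiguous share as a term or leave insulin and Rn45s out of the scaling.

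More genes were lower than higher with compound D in the comparison with condition 2. Of 12576 genes tested with edgeR's quasi-likelihood test, 60 passed at a Benjamini-Hochberg adjusted p below 0.05, which is 0.477% of them: 53 were lower with compound D (0.421%) and 7 were higher (0.0557%). All 60 moved the same way in 3 of 3 preparations, 47 of them by at least 2-fold. They were chosen by a test on these same preparations, so this agreement is no separate check. The share of all genes tested that moved the same way in 3 of 3 was not counted. The median log2 fold change over all genes tested was -0.01, and 850 genes had an unadjusted p below 0.05. The direction of the balance moved with the scaling: by library size alone 15 genes passed, 8 higher and 7 lower, with the median of all genes shifted to 0.31 on the log2 scale.

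The number of calls rested on few libraries. Without preparation 1, 2 genes passed, Txnip and Arrdc4, and without preparation 3, 14 did. Leaving out the condition 5 library of preparation 1, 2 or 3 left 15, 18 and 39 genes, and leaving out the condition 2 library of preparation 1 or 2 left 23 and 24. No gene passed in all 9 such fits, and Txnip, Tac1, Nr4a2, Ypel4, Dos, Dyrk3 and Lbh passed in 8 of them. The exception was the fit without preparation 2 for Txnip (log2 fold change 2.88, adjusted p = 0.183) and the fit without preparation 1 for the other 6. Cir1, Rsph10b, Rgs2, Nfil3, Atoh7, Ehd4, Paqr3, Pim3 and Pkp2 passed in none of the 9 fits. Another 16 genes passed in 1 of them, Rgs16, Ttc25, Fam46b, Gpr3, Cebpd and Plat among these. None of the 60 genes changed direction in any of the 18 alternative fits. These fits reuse libraries by which the genes were chosen, so the kept direction is no separate check.

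**Figure D1:**
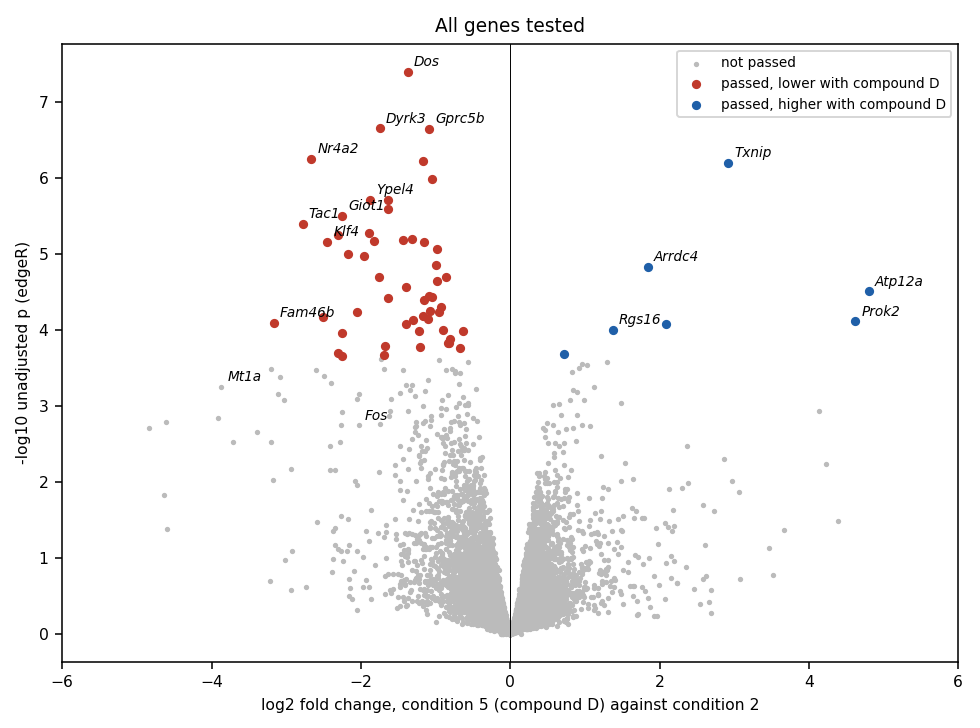
Log2 fold change of condition 5 against condition 2 (x axis) and -log10 unadjusted p of edgeR's test (y axis) for the 12576 genes tested. The 53 genes that passed with lower levels under compound D (red) outnumber the 7 with higher levels (blue), and Txnip stands highest among the latter.

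Txnip, the thioredoxin-interacting protein gene, had the smallest adjusted p among the 7 risen genes. It was at 137.5, 108.1 and 47.3 CPM in the condition 2 libraries of preparations 1, 2 and 3 and at 1117, 921.8 and 264.5 CPM in the compound D libraries, a log2 fold change of 2.92 (SE 0.35, adjusted p = 0.00132). The lowest compound D library lay above the highest condition 2 library, although preparation 3 was the lowest in both groups. In the 3 h control libraries of condition 1 Txnip was at 33.9, 50.3 and 34.4 CPM. Arrdc4, an alpha-arrestin of the same family, went from 17.6, 11.4 and 12.5 to 71.5, 39.1 and 39.1 CPM, a change of 1.84 (SE 0.29, adjusted p = 0.00774). Its condition 2 libraries and its compound D libraries did not overlap, and the condition 1 libraries, at 22.1, 18.1 and 21.7 CPM, lay between them. The Arrdc4 call was also lost without preparation 3 (1.94, adjusted p = 0.242), without the condition 5 library of preparation 1 (adjusted p = 0.0627) and without the condition 2 library of preparation 2 (1.74, adjusted p = 0.0761) or 3 (1.78, adjusted p = 0.0583).

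Rgs16, a regulator that speeds up the shut-off of G proteins, was at 56.1, 39.3 and 48.3 CPM in condition 2 and 170.6, 110 and 93 CPM with compound D, a change of 1.37 (SE 0.26, adjusted p = 0.0265). The remaining 4 risen genes are less studied in islets. Ttc25, listed today as Odad4 and encoding a docking protein of ciliary dynein arms, was at 1.96, 0.875 and 1.66 CPM against 7.89, 8.06 and 3.6 CPM (2.08, adjusted p 0.0237), and Cir1, a corepressor of Notch signalling, was at 27, 28.1 and 26.3 against 40.7, 48.3 and 45.2 CPM (0.72, adjusted p 0.0451). Atp12a, a non-gastric proton-potassium pump, and Prok2, the secreted peptide prokineticin 2, were near the detection limit without compound D. Atp12a had 3, 1 and 1 counts in the condition 2 libraries and 144, 50 and 13 in the compound D libraries. Prok2 had 1, 2 and 9 counts against 191, 99 and 29. In both genes preparation 1 was the highest compound D library and preparation 3 the lowest, and the fitted values of 4.80 and 4.62 depend on the prior count at such levels.

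**Figure D2:**
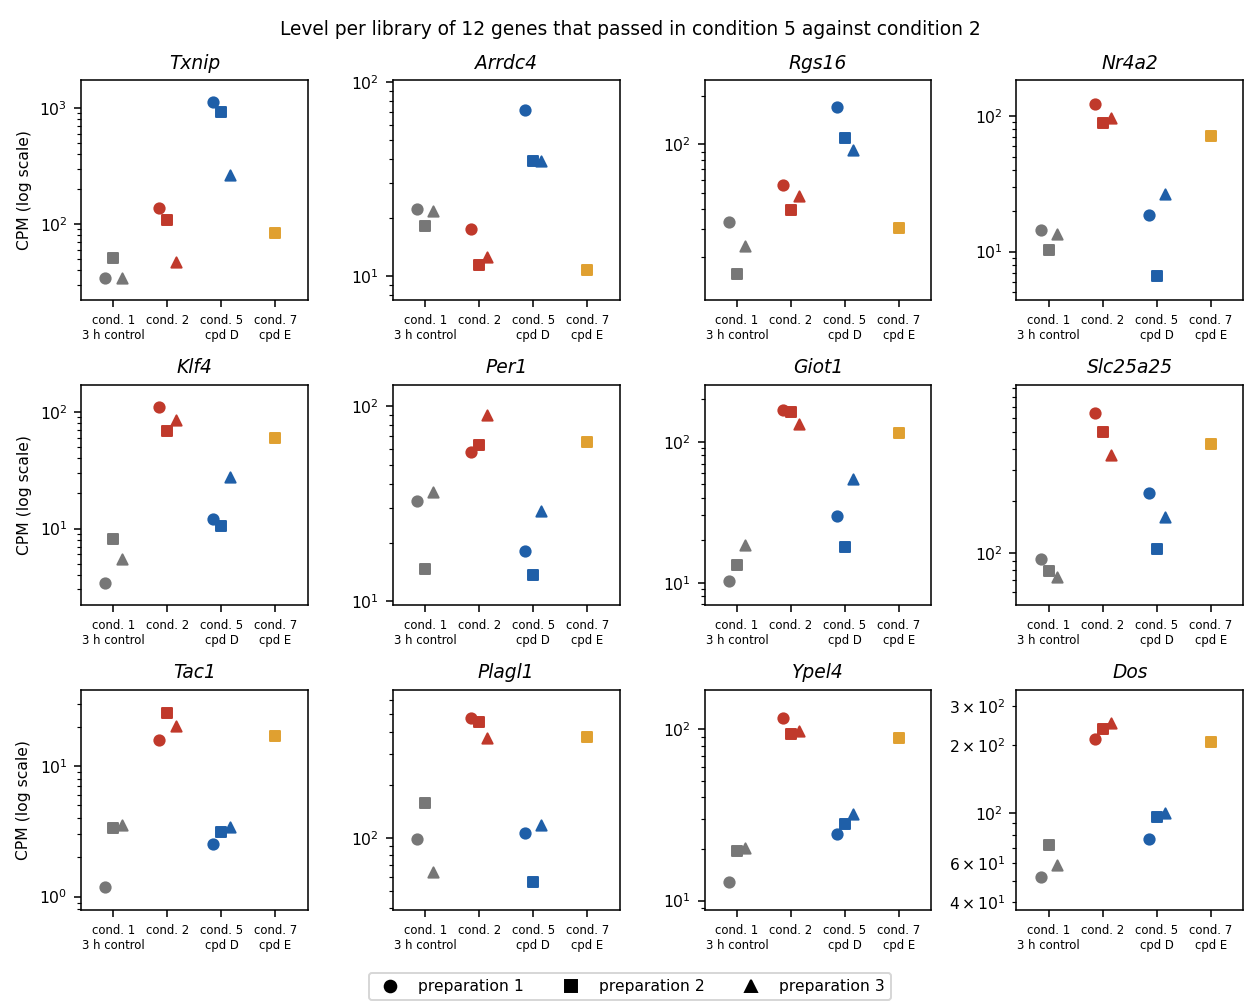
CPM on a log scale (y axis) in each library of conditions 1, 2, 5 and 7 (x axis) for 12 genes that passed, with the marker giving the preparation. For every gene shown the 3 compound D libraries (blue) do not overlap the 3 condition 2 libraries (red), and the single compound E library lies nearer to condition 2 than to condition 5 in preparation 2.

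Transcription factors that respond quickly to stimulation were among the fallen genes. Nr4a2, an orphan nuclear receptor and immediate early gene, was at 122.7, 89.1 and 96.3 CPM in condition 2 and 18.6, 6.55 and 26.6 CPM with compound D, a log2 fold change of -2.66 (SE 0.32, adjusted p = 0.00132). Its compound D libraries overlapped the 3 h control libraries, which held 14.4, 10.2 and 13.5 CPM. Klf4, a Krüppel-like factor of the same early response, went from 110.1, 68.6 and 85.8 to 12.1, 10.5 and 27.9 CPM (-2.45, SE 0.36, adjusted p = 0.00469), with 3.39, 8.19 and 5.49 CPM in condition 1. Preparation 3 kept the highest level of both genes under compound D, and in neither gene did the groups overlap.

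Giot1, a gonadotropin-inducible zinc finger repressor, was at 168.9, 163.7 and 132.8 against 29.7, 18 and 54.4 CPM (-2.25, SE 0.31, adjusted p = 0.00368). Plagl1, an imprinted zinc finger gene that restrains the cell cycle, was at 475.8, 455.9 and 369.7 against 107.1, 56.4 and 118.7 CPM (-2.17, SE 0.33, adjusted p = 0.00613). Per1, a period gene of the circadian clock that cAMP also induces, was at 58.1, 63.5 and 89.7 against 18.1, 13.7 and 29 CPM (-1.82, SE 0.27, adjusted p = 0.00469). In condition 1 Per1 stood at 32.7, 14.7 and 36.4 CPM, and the compound D libraries lay below the condition 1 library of the same preparation in 3 of 3 preparations. Nfil3, a repressor that sets clock phase, changed by -1.21 (SE 0.24, adjusted p = 0.0385), and Cebpd, a C/EBP factor of the acute phase response, by -1.67 (SE 0.34, adjusted p = 0.0378). Smaller falls were measured for Lbh, a transcriptional cofactor of limb and heart development (-1.17, adjusted p 0.00132), Erf, an ETS repressor that ERK controls (-1.15, adjusted p 0.0155), and Zfp347, a zinc finger gene (-1.09, adjusted p 0.0149). Atoh7, a bHLH factor best known from the retina, fell from 1.48, 0.958 and 2.18 to 0.576, 0.353 and 0.499 CPM (-1.69, adjusted p 0.0461).

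Of 25 tested genes of the cAMP and G protein list, Gpr3, Rgs2 and Rasd1 fell. Gpr3, a receptor that raises cAMP without a bound ligand, was at 2.71, 3.21 and 2.11 CPM in condition 2 and 0.474, 0.353 and 0.606 CPM with compound D (-2.51, SE 0.46, adjusted p = 0.0223). Rgs2, which shuts off Gq and is itself induced by cAMP, was at 125.2, 102.7 and 214.3 against 67.4, 41.8 and 95.9 CPM (-1.11, SE 0.20, adjusted p = 0.0225), and its groups did not overlap although preparation 3 was high in both. Rasd1, a Ras-like protein that acts on G protein signalling, was at 78.3, 69.8 and 110.8 against 24.7, 22.2 and 36.4 CPM (-1.64, SE 0.28, adjusted p = 0.0149). Adra2a, the alpha-2A adrenergic receptor that restrains insulin secretion, was at 601.8, 585.2 and 335.4 against 171.4, 199.6 and 196 CPM (-1.40, SE 0.24, adjusted p = 0.0123), with the compound D libraries at the level of condition 1 (201.6, 166.5 and 208.7 CPM). Gprc5b, an orphan receptor of beta cells, was at 212.8, 205.4 and 171.7 against 95.8, 91.5 and 88.8 CPM (-1.09, SE 0.12, adjusted p = 0.000965). Gpr135 (-2.25, adjusted p 0.0275), Gpr180 (-0.98, adjusted p 0.00546), Paqr3, a Golgi protein that holds back Raf (-0.81, adjusted p 0.0354), and Gnat1, a transducin subunit known from rod cells (-1.76, adjusted p 0.00994), also fell.

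Among secreted proteins, Tac1, which encodes substance P and neurokinin A, was at 15.9, 25.3 and 20.3 CPM in condition 2 and 2.51, 3.15 and 3.42 CPM with compound D, a change of -2.78 (SE 0.40, adjusted p = 0.00425). The compound D libraries held a narrow range within that of condition 1 (1.19, 3.36 and 3.55 CPM). Nmu, the peptide neuromedin U, was at 7.42, 9.62 and 4.39 against 2.07, 2.12 and 0.962 CPM (-2.06, SE 0.37, adjusted p = 0.0199), and Wnt9b, a Wnt ligand, at 17.9, 15.5 and 7.02 against 4.81, 2.41 and 2.74 CPM (-1.96, SE 0.30, adjusted p = 0.00621). Plat, tissue plasminogen activator, was at 399.4, 372.1 and 826.9 against 163.2, 156.8 and 377.5 CPM (-1.22, SE 0.23, adjusted p = 0.0265). Here preparation 3 of the compound D group was at 377.5 CPM, above preparation 2 of condition 2, so the groups overlapped and the fall shows only within preparations.

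Dos, listed today as Cbarp and encoding a regulator of voltage-gated calcium channel beta subunits, had the smallest p of all genes tested: 214.2, 235.3 and 250.9 CPM against 76.4, 96.3 and 99.6 CPM, a change of -1.37 (SE 0.14, adjusted p = 0.000511). Slc25a25, a calcium-activated carrier of ATP-Mg across the inner mitochondrial membrane, was at 642.8, 501.8 and 367.2 against 223.8, 105.7 and 161.5 CPM (-1.64, SE 0.22, adjusted p = 0.00329), and its compound D libraries stayed above condition 1 (92.9, 79.4 and 72.6 CPM). Grin1, the obligatory NMDA receptor subunit, was at 55.4, 53.9 and 49.5 against 25.2, 27.2 and 24.3 CPM (-1.05, SE 0.13, adjusted p = 0.00189). The synaptic adhesion genes LRRTM1 and Clstn3 fell by 2.31 and 0.99 on the log2 scale, and Iqsec3, an exchange factor of inhibitory synapses, by 0.99. None of the 40 tested genes of the ion channel list passed (median -0.02).

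Kinases and kinase regulators that fell were Dyrk3, which dissolves stress granules (-1.75, SE 0.20, adjusted p = 0.000965), Mapkapk2, the main kinase downstream of p38 (-1.16, SE 0.17, adjusted p = 0.00469), Pim3 (-0.95, adjusted p 0.0199) and the pseudokinase Trib1 (-1.07, adjusted p 0.0199). Metabolic enzymes were few: Acot2, a mitochondrial acyl-CoA thioesterase and PPAR target, went from 34.6, 39.1 and 22.9 to 10.3, 14.6 and 10.3 CPM (-1.44, SE 0.21, adjusted p = 0.00469), Gls2, the liver-type glutaminase, from 69.1, 61.9 and 59.3 to 28.2, 25.3 and 23.8 CPM (-1.30, adjusted p 0.0229), and Ak8, an adenylate kinase, from 12.9, 18.1 and 13.9 to 3.69, 3.53 and 5.17 CPM (-1.89, adjusted p 0.00469). Fam46b, a poly(A) polymerase now called Tent5b, had the largest fitted fall of the 60 genes that passed, from 12.6, 6.5 and 11.3 to 1.83, 0.193 and 1.6 CPM (-3.17, SE 0.59, adjusted p = 0.0236). In condition 1 it was at 0.0942, 0.439 and 0.264 CPM.

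The other members that fell were Ypel4, a small nuclear protein of the Yippee family (116.4, 94.1 and 97.9 against 24.5, 27.8 and 31.9 CPM, -1.88, SE 0.25, adjusted p = 0.00272), Midn (-1.31, adjusted p 0.00469) and Emd, the nuclear envelope protein emerin (-1.64, adjusted p 0.00272). Falls were also measured for Cnn3, a calponin (-0.67, adjusted p 0.0388), Tes, a focal adhesion protein (-0.63, adjusted p 0.0265), Pkp2, a desmosomal plakophilin (-0.83, adjusted p 0.0354), Crb3, a polarity protein (-1.16, adjusted p 0.022), and Ehd4, an endosomal ATPase (-0.80, adjusted p 0.0326). Bag2, an Hsp70 cochaperone, was at -0.86 (adjusted p 0.00994), Dennd2c, a Rab exchange factor, at -1.40 (adjusted p 0.0237) and Ttc9 at -0.92 (adjusted p 0.0185). Fam110c (-2.30, adjusted p 0.0445), Rsph10b (-2.25, adjusted p 0.0472), Oxnad1 (-1.04, adjusted p 0.0149) and Tmem229a (-0.90, adjusted p 0.0265) complete the 53. Dyrk3 and Mapkapk2 are neighbours on the GRCr8 assembly, as are Pkp2 and Cebpd, and Midn lies 2 protein-coding genes from Cbarp. The sources used here do not state whether strand was used in counting, so reads of overlapping transcripts cannot be told apart.

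Promoter windows of the genes that moved were taken from RefSeq (GRCr8, 250 bases before to 50 after each gene's start), because several of the fallen genes, such as Nr4a2, Per1 and Rgs2, are known to respond to cAMP and the risen pair Txnip and Arrdc4 to glucose. Windows were found for 46 of the 53 fallen and 5 of the 7 risen genes. The full cAMP response element, TGACGTCA, read on both strands, was present in 4 of the 46 (8.7%: Clstn3, Giot1, Paqr3 and Slc25a25), in 3.23% of the genes tested that have a window and in 2% of all genes of the promoter table. Its 5-base part TGACG, which the full element contains, was in 24 of the 46 (52.2%), Nr4a2, Gpr3, Rgs2, Rasd1, Tac1 and Nfil3 among them, against 31.6% of the genes tested and 23% of all. None of Nr4a2, Per1 and Rgs2 held the full element in its window, and Per1 did not hold the 5-base part either. The E box CACGTG, the core of carbohydrate response elements, was in 2 of the 5 risen genes (40%, Arrdc4 and Prok2), 6 of the 46 fallen (13%), 9.33% of the genes tested and 7.08% of all. Txnip was not among the E box holders, and whether it was among the 5 risen genes with a window is not given here. These are matches of letters and not measured binding. The windows of Slc25a25 (chr3:36116532-36116831, minus strand), Giot1 (chr7:10886916-10887215, minus strand) and Arrdc4 (chr1:131793376-131793675, minus strand) are shown 5′ to 3′ because they hold the full motif beside a large change, with the cAMP response element or E box in capitals.
Slc25a25: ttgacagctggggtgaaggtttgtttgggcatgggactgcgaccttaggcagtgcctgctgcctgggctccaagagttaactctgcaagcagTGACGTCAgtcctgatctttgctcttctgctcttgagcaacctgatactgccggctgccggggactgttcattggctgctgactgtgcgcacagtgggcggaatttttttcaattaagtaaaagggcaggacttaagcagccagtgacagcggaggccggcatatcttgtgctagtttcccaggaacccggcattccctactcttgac
Giot1: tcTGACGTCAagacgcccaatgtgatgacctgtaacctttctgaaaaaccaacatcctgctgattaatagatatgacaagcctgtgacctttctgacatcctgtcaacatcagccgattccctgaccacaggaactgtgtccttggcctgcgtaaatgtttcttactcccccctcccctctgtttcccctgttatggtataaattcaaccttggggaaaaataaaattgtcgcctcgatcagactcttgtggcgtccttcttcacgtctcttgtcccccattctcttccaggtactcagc
Arrdc4: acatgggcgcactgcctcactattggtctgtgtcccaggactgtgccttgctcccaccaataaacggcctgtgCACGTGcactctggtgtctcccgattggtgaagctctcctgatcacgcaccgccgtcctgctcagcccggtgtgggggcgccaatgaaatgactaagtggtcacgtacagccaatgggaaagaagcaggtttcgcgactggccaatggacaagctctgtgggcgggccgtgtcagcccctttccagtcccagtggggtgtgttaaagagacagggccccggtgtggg
The element begins 158 bases before the start of Slc25a25 and 248 bases before that of Giot1, and the E box begins 177 bases before that of Arrdc4.

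Of the 22 pathway lists, immediate early genes had the lowest median. Of 37 tested, 3 fell (Nr4a2, Klf4 and Per1), none rose, and 35 had a fitted value below 0, with a list median of -0.93. Over all genes tested, 51.5% lay below 0, 4.27% were lower at an unadjusted p below 0.05, and the median was -0.01. In the list 21 were lower at that unadjusted level and 1, Klf10, was higher. Fos, the AP-1 subunit, was at 93.1, 68.7 and 160.6 CPM in condition 2 and 29.3, 9.7 and 49.5 CPM with compound D (-2.02, adjusted p 0.159), groups that did not overlap but that varied widely between preparations. Nr4a1 was at 52.4, 53.6 and 173.7 against 22.4, 15.2 and 53 CPM (-1.62, adjusted p 0.138) and overlapped through preparation 3. Nr4a3 was at 80.7, 59.9 and 65.9 against 54.3, 10.1 and 35 CPM (-1.13, adjusted p 0.734). Egr1 was at 19.9, 11.5 and 96.7 against 21.6, 13 and 66.4 CPM (-0.22, adjusted p 0.996), higher with compound D in preparations 1 and 2 and lower in preparation 3. Further values that did not pass were -2.42 for Egr4, -1.36 for Junb, -1.28 for Fosl1, -0.83 for Gem and 1.29 for the glucose-responsive factor Klf10 (adjusted p 0.0521).

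**Figure D3:**
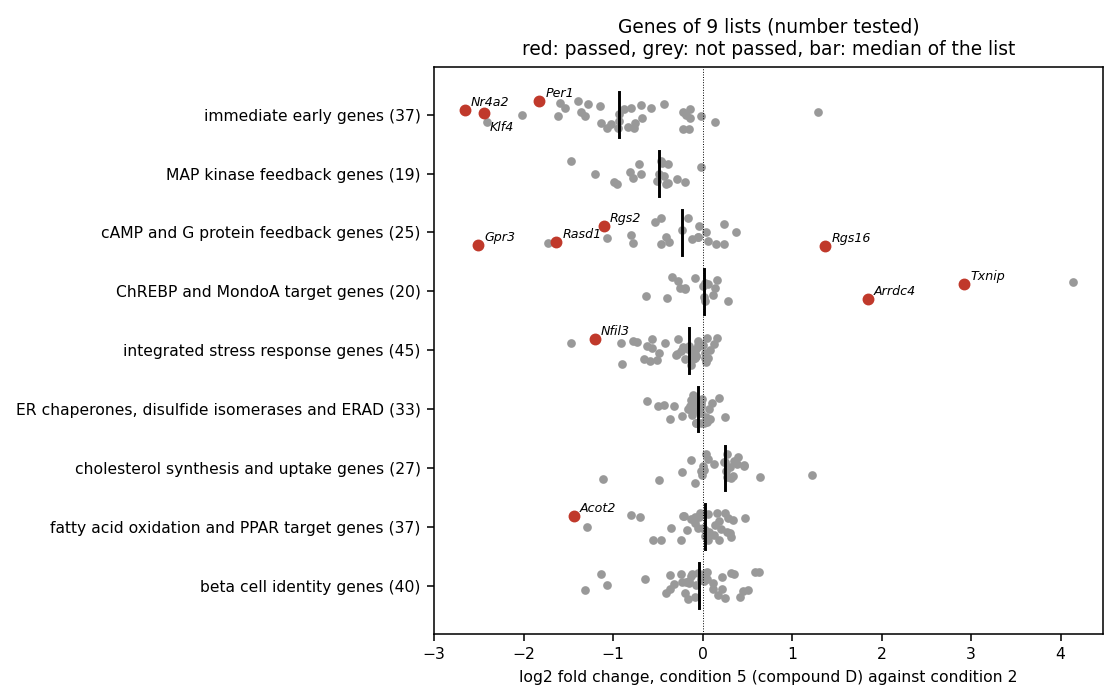
Log2 fold change of condition 5 against condition 2 (x axis) for each tested gene of 9 lists (y axis, number tested in brackets), with genes that passed in red and the list median as a black bar. Immediate early genes centre on -0.93 and MAP kinase feedback genes on -0.49, while the ER chaperone, fatty acid oxidation and beta cell identity lists centre near 0.

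The MAP kinase feedback list, phosphatases and Sprouty proteins that ERK induces to limit itself, had 0 of 19 genes past the threshold, 9 at an unadjusted p below 0.05 and 19 of 19 values below 0, with a median of -0.49. Dusp6, the ERK phosphatase, was at 28.5, 28.1 and 32.6 against 11.7, 12.6 and 22.7 CPM (-0.96, adjusted p 0.0507), just outside the threshold, and Dusp1 was at 45, 44.3 and 97.1 against 21.3, 19 and 40.3 CPM (-1.20, adjusted p 0.223). In the cAMP and G protein list 3 of 25 fell (Gpr3, Rgs2, Rasd1) and Rgs16 rose, with a median of -0.23. By library size alone this median was 0.0913, against -0.616 for the immediate early and -0.179 for the MAP kinase feedback genes. Sik1, a salt-inducible kinase under CREB control, had -1.73 (adjusted p 0.0501), Crem had -0.78 (adjusted p 0.359) and Irs2, the insulin receptor substrate that cAMP induces in beta cells, had -0.80 (adjusted p 0.173). None of these 3 passed.

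The ChREBP and MondoA list had 2 of 20 genes higher, Txnip and Arrdc4, and none lower, with a median of 0.02. Pklr, the liver-type pyruvate kinase, had 0.29 (adjusted p 0.919), Mlxipl, which encodes ChREBP itself, had -0.09 (adjusted p 0.996), and Slc2a2, the glucose transporter GLUT2, had 0.12 (adjusted p 0.996), none of them past the threshold. Of this list, then, the members that passed were the arrestin genes. At an unadjusted p below 0.05, 3 members were higher, these 2 included, and none was lower.

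Few genes of the lists tied to lipid and endoplasmic reticulum stress passed at 3 h. Of 45 integrated stress response genes 1 fell, Nfil3, none rose, and 10 were lower at an unadjusted p below 0.05 (median -0.15). Atf3 was at 18.6, 21.5 and 34.4 against 12.1, 10.3 and 17.1 CPM (-0.93, adjusted p 0.392) and Ddit3, encoding CHOP, at 68.8, 67.4 and 53.4 against 36, 52.5 and 37.2 CPM (-0.59, adjusted p 0.771). None of 33 ER chaperone and ERAD genes passed, 2 had an unadjusted p below 0.05, and the median was -0.05. Hspa5, the chaperone BiP, was at 4417, 4797 and 4386 against 3956, 5064 and 4420 CPM (-0.02), and Xbp1 had -0.43 (adjusted p 0.379). Of 37 fatty acid oxidation and PPAR genes only Acot2 passed, and Cpt1a, the gate of mitochondrial fatty acid import that palmitate induces through PPARs, was at 54.9, 52.7 and 53.8 against 58, 52 and 54.1 CPM (0.03), with 24.6, 29.6 and 24.5 CPM in condition 1. None of 27 cholesterol genes passed and 7 of them lay below 0 (median 0.25). Hmgcs1, an enzyme gene of cholesterol synthesis, was at 140.8, 88.8 and 202.3 against 398.3, 180.9 and 413.1 CPM (1.22, adjusted p 0.271). None of 24 fatty acid synthesis and desaturation genes passed, with 3 higher and 2 lower at an unadjusted p below 0.05. Of these, Scd1, stearoyl-CoA desaturase, had 0.78 (adjusted p 0.506) and Agpat2 had -0.59 (adjusted p 0.472).

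None of 40 beta cell identity genes passed (median -0.04, with 2 higher and 3 lower at an unadjusted p below 0.05). Nkx6-1 had -0.65 (adjusted p 0.345) and Hnf4a had 0.59 (adjusted p 0.277). The lists for cytokine, interferon, TGF-beta, heat shock, metallothionein, apoptosis, cell cycle, glycolysis, respiratory chain, antioxidant, fatty acid synthesis and ion channel genes had no member past the threshold, and the circadian list had Per1 and Nfil3. Some large differences stayed outside it. Mt1a, the zinc-binding metallothionein 1, was at 4218, 4638 and 2196 CPM in condition 2 and 125.2, 327.9 and 266.1 CPM with compound D, groups far apart, with a fitted value of -3.87, an SE of 0.87 and an adjusted p of 0.0827. Slc30a1, the zinc exporter that rises with zinc, was at 109.1, 87.2 and 96.1 against 58.7, 26.1 and 54.6 CPM (-1.08, adjusted p 0.542). Fst, the activin antagonist follistatin, was at 3.32, 2.33 and 1.76 against 0.271, 0.353 and 0.962 CPM (-2.25, adjusted p 0.13), Bmp2 at 6.02, 4.96 and 9.79 against 1.02, 0.771 and 4.06 CPM (-2.03, adjusted p 0.0948) and Socs3, the cytokine signalling inhibitor, at 25.9, 18.9 and 82.9 against 8.06, 7.71 and 44.9 CPM (-1.26, adjusted p 0.159). Kcnn2, a calcium-activated potassium channel, was at 3.93, 4.33 and 4.22 against 8.13, 8.35 and 7.87 CPM (0.96, adjusted p 0.0555) and Slc2a1, the glucose transporter GLUT1, at 80.6, 84.8 and 144.3 against 32.8, 45.9 and 58.1 CPM (-1.15, adjusted p 0.242).

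Islet hormones identified the tissue in all 6 libraries. Ins1 was at 339900, 287400 and 128600 CPM in condition 2 and 60470, 186500 and 106400 CPM with compound D (-1.07, adjusted p 0.895), lower with compound D in 3 of 3 preparations by very different amounts. Ins2 was at 156000, 120500 and 73800 against 33610, 98890 and 39870 CPM (-1.13, adjusted p 0.817). Gcg, glucagon, was at 18140, 17980 and 10850 against 16350, 18490 and 11950 CPM (0.01), Sst, somatostatin, at 1061, 1346 and 534.3 against 393.5, 1369 and 363.3 CPM (-0.62) and Ppy, pancreatic polypeptide, at 1155, 1388 and 851.1 against 434.4, 1277 and 317.2 CPM (-0.97). In bulk RNA, fewer cells of a type and less RNA per cell cannot be told apart. No member of 11 marker lists of other cells passed. The summed CPM of the 10 red cell, 18 macrophage, 13 lymphocyte, 10 Schwann cell, 22 acinar, 10 ductal, 12 alpha, 8 delta and 6 pancreatic polypeptide cell markers overlapped between the groups. Ptf1a of the acinar list and Cd3g of the lymphocyte list were at 0 in all 6 libraries. The 19 endothelial markers summed to 358 to 423 CPM in condition 2 and 341 to 357 CPM with compound D, and the 18 stellate cell and fibroblast markers to 1382 to 1469 and 1137 to 1337 CPM. These 2 sums did not overlap, and their part in the fallen genes was not tested.

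The effect at 3 h was then set beside the effect of compound D under 24 h GLT, condition 6 against condition 4. The 2 comparisons share no library but come from the same 3 preparations. In preparation 1 Rn45s again differed, with 1.57% in condition 4 and 7.23% in condition 6. In preparations 2 and 3 it took 1.59% and 4.89% in condition 4 and 1.56% and 6.92% in condition 6. The part of this composition in the likeness of the 2 effects was not tested. At 24 h 511 genes passed, 4.06% of those tested. Of the 53 genes that fell at 3 h, 49 had a lower level at 24 h as well and 27 passed there, all lower. Of the 7 that rose, 6 were also higher at 24 h and 4 passed (Txnip, Rgs16, Ttc25 and Atp12a). Over all genes tested, 55.5% had the same sign at both times. Of the 266 genes that passed as lower at 24 h, 235 were also lower at 3 h, with a 3 h median of -0.46, and of the 245 that passed as higher, 167 were also higher at 3 h, with a 3 h median of 0.12. Txnip was at 76.5, 90.9 and 46.9 CPM in condition 4 and 235.5, 467.9 and 194.4 CPM in condition 6, a change of 2.04 (adjusted p 0.00475). Tac1 changed by -2.76 (adjusted p 0.00199), Nr4a2 by -2.07 (adjusted p 0.00267), Klf4 by -2.04 (adjusted p 0.00724) and Rgs2 by -1.75 (adjusted p 0.00044). Plagl1 was at 151.8, 186.3 and 128.9 against 13.8, 13.8 and 10.1 CPM (-3.63, adjusted p 0.000112) and Plat at 772.3, 805.8 and 1455 against 109.4, 83 and 199.3 CPM (-2.99, adjusted p 2.58e-05).

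The difference between the 2 effects, taking condition 5 against condition 2 as the effect at 3 h (the sheet reading), was tested in the same fit and passed for 7 genes, 0.0557% of those tested, with 1006 at an unadjusted p below 0.05. For 2 of them the change was larger at 3 h. Gprc5b fell at 3 h and was at 65.7, 73.1 and 51.7 against 87.8, 97.7 and 72.1 CPM at 24 h (0.44), a difference of 1.52 (SE 0.17, adjusted p = 0.0023). Ypel4 fell from 116.4, 94.1 and 97.9 to 24.5, 27.8 and 31.9 CPM at 3 h and was at 9.42, 10.3 and 7.93 against 9.06, 16.5 and 7.29 CPM at 24 h, a difference of 2.09 (SE 0.35, adjusted p = 0.049). Against condition 3, the record reading, Ypel4 had 1.21 (adjusted p 0.0115), higher with compound D, and Gprc5b had 0.22 (adjusted p 0.294), so neither fell at 3 h there. The other 5 were lower with compound D at 24 h and did not pass at 3 h. Hspa5 differed by -1.08 (SE 0.17, adjusted p = 0.0398), with 6075, 5529 and 6259 against 2688, 2717 and 2927 CPM at 24 h, and Il23a, a subunit of interleukin 23, by -3.01 (SE 0.35, adjusted p = 0.0023), with 51.2, 42 and 94.2 against 5.83, 5.23 and 6.01 CPM. Anxa3, an annexin, differed by -3.03 (SE 0.41, adjusted p = 0.0105), Bcat1, the cytosolic branched-chain aminotransferase, by -1.69 (SE 0.26, adjusted p = 0.037) and Gucy2c, the guanylin receptor, by -2.29 (SE 0.39, adjusted p = 0.049). At 3 h those 5 genes had values of -0.02, -0.36, 0.07, -0.23 and -0.50 in the same order, none past the threshold. Without compound D these 5 were lower on average in condition 2 than in condition 4. The means were 4533 and 5954 CPM for Hspa5, 6.76 and 62.45 CPM for Il23a and 1.087 and 14.47 CPM for Anxa3. Bcat1 had 13.76 and 60.62 CPM and Gucy2c 31.33 and 61.36 CPM. The part of these starting levels in the differences was not tested. No gene passed the test of the difference without preparation 1, without preparation 3 or without the preparation block, and each other leave-out left 2 to 8.

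**Figure D4:**
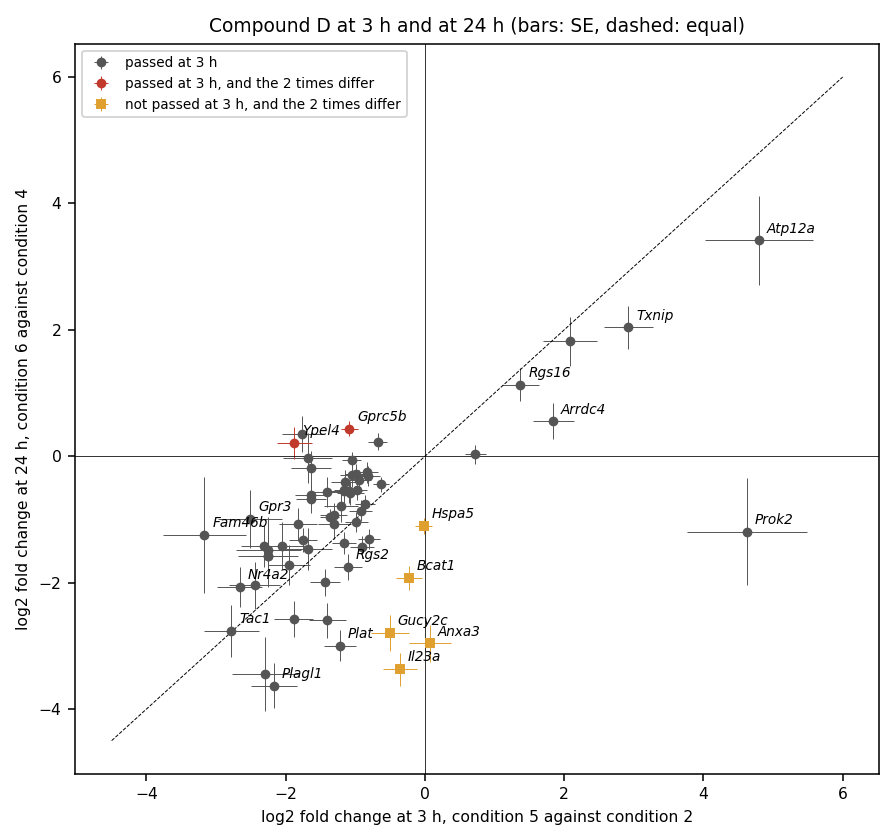
Fitted log2 fold change of compound D at 3 h (x axis, condition 5 against condition 2) and at 24 h (y axis, condition 6 against condition 4) with SE bars, for the 60 genes that passed at 3 h and the 7 whose effects differed. Tac1 lies on the line of equal effects and Txnip near it, Ypel4 and Gprc5b fell at 3 h and lie above that line, and Il23a, Anxa3, Gucy2c, Bcat1 and Hspa5 were lower with compound D at 24 h.

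If the sample records are right, compound D at 3 h is compared with condition 3 instead. That comparison shares the condition 5 libraries with the one above, so its values are given beside it and do not repeat it independently. Of the genes tested, 870 passed (6.92%), 503 higher and 367 lower with compound D. Txnip changed by 3.80 (adjusted p 0.000223), Arrdc4 by 2.01 (adjusted p 0.00194) and Rgs16 by 2.30 (adjusted p 0.000434), and the other 4 of the 7 risen genes were also higher (8.84 for Atp12a, 5.96 for Prok2, 2.76 for Ttc25 and 0.55 for Cir1, all passed), so all 7 were higher with compound D under either reading. Of the 37 immediate early genes 8 were higher than in condition 3 and none lower. Of the 3 that fell against condition 2, Nr4a2 and Klf4 were among the 8 and Per1 was not. Nr4a2 was at 8.01, 4.66 and 6.72 CPM in condition 3 and changed by 1.35 (adjusted p 0.019), Klf4 by 2.19 (adjusted p 0.0042), Giot1 by 2.45 (adjusted p 0.000942), Slc25a25 by 1.59 (adjusted p 0.00147), Rgs2 by 1.78 (adjusted p 0.000434) and Tac1 by 1.98 (adjusted p 0.0136). Nr4a3 was at 1.49, 0.932 and 1.56 CPM and changed by 4.58 (adjusted p 0.00132). Per1 did not pass (-0.68, adjusted p 0.144). The direction of these genes depends on which of the names holds. The 3 marker measures given at the start that separated the times have condition 2 with the 3 h groups and condition 3 with the 24 h groups. In the cholesterol list 13 of 27 genes were higher than in condition 3 and none lower. The count rested on single libraries and the fit: it was 10 without preparation 1, 81 without preparation 3, 203 without the condition 5 library of preparation 1, 94 with the ambiguous share as a term and 18 with the 2 groups fitted alone.

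Compound E under 3 h GLT has 1 library, of preparation 2, so its values carry no replicate check. To keep the choice of genes apart from the libraries read, genes were chosen in a fit without preparation 2, in which 47 passed, 44 lower and 3 higher with compound D. In preparation 2, 46 of the 47 differed in the same direction with compound D, with a median change of 1.12 on the log2 scale in that direction. The median for compound E against the same condition 2 library was 0.118, and the compound E library lay nearer to condition 2 than to compound D in 46 of the 47. Of these genes, Nr4a2 was at 89.1 CPM in the condition 2 library of preparation 2, 6.55 CPM with compound D and 71.8 CPM with compound E. Klf4 was at 68.6, 10.5 and 59.8 CPM and Arrdc4 at 11.4, 39.1 and 10.7 CPM in the same order. Txnip, which did not pass without preparation 2 and is not among the 47, was at 108.1, 921.8 and 82.9 CPM. How often the compound E library lay nearer to condition 2 over all genes tested was not counted. The share of all genes with the same direction with compound D in preparation 2 was not counted either. Neither 46 of 47 can therefore be read as particular to these genes. In preparation 2 insulin genes took 35.4% of the condition 2 library, 28.7% with compound D and 39.7% with compound E. The part of this composition in the nearness was not tested. Both compounds were given at 300 nM for 3 h, and a difference between them was not tested with 1 library.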

How the data were processed

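RNA from islets was sequenced with paired 100 bp reads, aligned by TopHat2 2.0.3 (with Bowtie2 2.0.0) on the rn5 genome and counted per gene with HTSeq, per the labels' protocols; annotation and strand setting are not given in the sources used here. The deposited values are raw counts for 17025 genes. Another 5 entries without a gene entered neither the totals nor the tests: in the 6 libraries reads outside genes made up 13.9% to 18.4%, multiply aligned reads 5.24% to 8.51% and ambiguous reads 0.691% to 2.32%. Gene IDs of 16864 genes matched RefSeq.

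edgeR 4.0.16 (R 4.3.3) fitted conditions and preparations as terms over the 21 libraries (glmQLFit, robust; TMM; filterByExpr), and tests were 2-sided with Benjamini-Hochberg adjustment over 12576 genes. The labels say that each isolation was divided over the groups, so the preparation is a paired block; deviations of libraries of the same preparation correlated at 0.323, 0.586 and 0.666 in preparations 1 to 3. Libraries of a group differed by more than counting error (lowest chi-square per degree of freedom 27.7). In simulated counts for condition 5 against condition 2 (12576 genes), 49% of 100 genes with a 2-fold change and 89% of 100 with a 4-fold change were recovered, with 4 false calls, and none was called with no change. The changed genes were drawn from those with at least 1 CPM on average in preparation 1, so recovery at lower levels was not tested. Counts were drawn independently at the fitted spread.

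Named were all genes that passed in condition 5 against condition 2 or in the difference between times. By rule, genes that did not pass came from the 2 of smallest p in each list where none did, and from a set of hormone and stress genes. Not all of these are given, Sdf2l1, Fth1, Casp8 and Kcnk1 being left out, and the choice among them was not set by the rule. After their values were seen, Pklr, Mlxipl, Slc2a2, Egr4, Fosl1, Gem, Junb, Klf10, Sik1, Crem and Irs2 were added. The members, the 22 pathway and 11 marker lists (832 of 869 symbols matched) and the rule were chosen with earlier results of these data known. Alternatives were DESeq2 1.42.0, other scalings, no filter, no block, fewer groups, an ambiguous-read term and leaving out libraries. P-values rest on the spread left between the 21 libraries after the terms for condition and preparation. They do not measure the spread between preparations, which the block takes out, or between single animals.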

Additional observations from a re-analysis of the deposited data

Results flagged for a closer look

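The effect of compound D differed between 24 h and 3 h for 7 genes by edgeR's test of the difference itself (24 h minus 3 h, log2 scale), with condition 5 against condition 2 as the effect at 3 h, the sheet reading. The difference was 1.52 for Gprc5b and 2.09 for Ypel4, which fell at 3 h in that comparison. Against condition 3, the record reading, Gprc5b had 0.22 (adjusted p 0.294) and Ypel4 1.21 (adjusted p 0.0115). The difference between the times was -3.01 for Il23a, -3.03 for Anxa3, -2.29 for Gucy2c, -1.69 for Bcat1 and -1.08 for Hspa5, which were lower with compound D at 24 h. Without compound D, each of these last genes was lower on average in condition 2 than in condition 4. All 7 had an adjusted p below the threshold, the highest 0.049, and no gene passed without preparation 1 or without preparation 3.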

How the results depend on the processing

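For condition 5 against condition 2, the 60 calls became 15 by library size alone, 164 with DESeq2 (all 60 shared), 33 with no replicate block and 336 with the 2 groups fitted alone (59 shared). Leaving out a preparation or a library gave 2 to 47. For condition 5 against condition 3, the 870 calls became 358 by library size, 1420 with DESeq2, 425 with no replicate block, 18 with the groups alone and 94 with the ambiguous share as a term, and 10 to 1417 on leaving out libraries. For the difference between times, the 7 calls became 3 by library size, 90 with DESeq2, 0 with no replicate block (693 at an unadjusted p below 0.05) and 0 to 8 on leaving out libraries. The 57, 88, 66, 48 and 54 calls without a filter, without compound E, without insulin and Rn45s in the scaling, with the ambiguous term and without condition 3 (the last chosen after seeing the data) stayed within 1.5 times of 60. Why these counts moved was not tested. None of the 60 genes changed direction in any of these fits, which reuse libraries by which the genes were chosen.

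The 7 genes below did not pass and had a value of the opposite sign under some settings. Gcg was at -0.00571 with no replicate block and -0.0519 to 0.102 on leaving out libraries. Hspa5 was at 0.299 by library size, 0.0167 with the ambiguous term and -0.116 to 0.0561 on leaving out libraries. Egr1 was at 0.0526 by library size and -0.696 to 0.686 on leaving out libraries, Cpt1a at -0.0827 to 0.0975, Anxa3 at -0.239 to 0.352, and Bcat1 at 0.0893 by library size. Mlxipl was at 0.228 by library size and -0.223 to 0.161 on leaving out libraries.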
